A study of Homo sapiens with 16 samples.

Results

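The intervals described here are distal stretches of the genome at which H3K27ac, the acetylated form of lysine 27 on histone H3, was higher after sorbitol than after vehicle. The set was chosen from a table of 74404 intervals by 4 criteria. An interval lay on chromosomes 1 to 22 or X, outside the YAP1 gene, and over 1 kb from every transcript start of GENCODE release 44. It held at least 60 counts over the 4 H3K27ac libraries. Its mean H3K27ac CPM with sorbitol was at least 1.7 times that with vehicle, and both sorbitol libraries lay above both vehicle libraries. CPM means counts per 1e6 counts of the library over chromosomes 1 to 22 and X without the YAP1 gene. The criteria kept 5039 intervals, called members below, of 24146 distal intervals with at least 60 H3K27ac counts and of 48827 distal intervals in all. The other 19107 distal intervals with at least 60 H3K27ac counts are called the other distal acetylated intervals. Because H3K27ac chose the members, H3K27ac values below describe them and carry no test.

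The counts come from CUT&Tag, in which an antibody directs the Tn5 transposase to cut and tag DNA near its target in nuclei. The cells were HEK293, a line derived from human embryonic kidney, of eGFP-YAP genotype in all libraries, controls included. They received vehicle or sorbitol, a sugar alcohol that draws water out of cells, at 200 mM for 1 h. By the series' design text the cells were deprived of serum before sorbitol. Controls are said to have been collected in parallel, while the table's column names give 0 h for vehicle. Antibodies were against H3K27ac, the insulator protein CTCF, the cohesin subunit RAD21, or GFP, which reads the tagged YAP1. There were 16 libraries, 2 for each target and treatment. The labels do not say whether the line is 1 clone or whether replicates were separate cultures, so p-values measure only the spread between these libraries. A control library made with an unspecific antibody was not analysed here.

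H3K27ac is deposited by the acetyltransferases CBP and p300 and marks active promoters and active enhancers. Enhancers lie away from transcript starts and bind transcription factors, among them AP-1 and the TEAD proteins that recruit the Hippo pathway coactivator YAP1. CTCF binds a long motif and halts the cohesin ring, which forms loops between distant sites. Hyperosmotic stress shrinks cells, activates p38 kinase signalling and induces genes for the uptake of organic osmolytes through NFAT5.

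The H3K27ac libraries held 6351415 to 8602100 counts on the chromosomes used, against 520367 to 3616235 for the other targets. Mitochondrial intervals took 1.95% to 2.08% of all H3K27ac counts. In the CTCF, RAD21 and YAP1 libraries they took 15.7% to 57.8%, and for each of these targets both sorbitol libraries had the higher share. The part of depth and of these shares in the results below was not tested. As a check of the cell label, promoters of the 6 HEK293 markers read here (PAX2, LHX1, SALL1, EYA1, NES, VIM) all carried H3K27ac, from 9.73 to 170 CPM over the 4 libraries. Of 6 markers of blood, liver and intestine, 5 (PTPRC, CD3E, ALB, CDX1, VIL1) had no interval within 1 kb of a start, while CDX2 had 149 to 166 CPM.

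The sequences below show the members at the extremes of the measurements. They come from hg38, run 5′ to 3′ on the forward strand, and are in lower case except for the part named. The member with the largest H3K27ac ratio, in an intron of PRKAG2 at chr7:151603075-151603504, is shown by 150 bases (chr7:151603215-151603364). So are the member with the most counts outside telomeric repeats (TMEM242 intron, chr6:157310837-157310986), the one with the largest fitted RAD21 rise (HUNK intron, chr21:31918962-31919111) and the one with the highest vehicle YAP1 level per kb outside telomeric repeats (intergenic, PROS1 the nearest protein-coding gene, chr3:93470521-93470670). In these 4 the capitals mark 1 copy of a unit that recurs along the interval.
PRKAG2 intron: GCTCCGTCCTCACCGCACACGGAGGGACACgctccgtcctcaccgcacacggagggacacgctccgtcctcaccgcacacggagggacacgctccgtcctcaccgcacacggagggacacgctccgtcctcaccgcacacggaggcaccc
TMEM242 intron: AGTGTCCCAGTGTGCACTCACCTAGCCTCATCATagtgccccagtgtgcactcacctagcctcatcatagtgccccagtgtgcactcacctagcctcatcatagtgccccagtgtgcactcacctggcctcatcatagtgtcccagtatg
HUNK intron: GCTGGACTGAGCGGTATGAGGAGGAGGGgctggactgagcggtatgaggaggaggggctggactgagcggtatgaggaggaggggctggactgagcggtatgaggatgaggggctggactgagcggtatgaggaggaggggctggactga
PROS1-side intergenic: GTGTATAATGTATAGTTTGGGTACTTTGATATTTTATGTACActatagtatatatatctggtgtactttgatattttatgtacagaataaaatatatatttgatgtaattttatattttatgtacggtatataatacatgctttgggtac

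For contrast, the next 3 members hold no such unit. The first has the largest H3K27ac ratio among members without a tandem repeat that are named here and lies 427734 bp from the start of SLIT2 (chr4:19823835-19824134). The others, in introns of ARSJ (chr4:113959196-113959495) and LINC01915 (chr18:24560642-24560941), fell for YAP1 after sorbitol, and capitals mark the AP-1 motif TGANTCA, read on both strands.
SLIT2-side intron: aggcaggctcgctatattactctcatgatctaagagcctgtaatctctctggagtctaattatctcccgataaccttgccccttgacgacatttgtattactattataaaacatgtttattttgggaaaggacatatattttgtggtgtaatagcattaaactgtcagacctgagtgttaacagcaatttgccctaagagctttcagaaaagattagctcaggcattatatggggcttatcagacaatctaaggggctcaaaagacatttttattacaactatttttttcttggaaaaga
ARSJ intron: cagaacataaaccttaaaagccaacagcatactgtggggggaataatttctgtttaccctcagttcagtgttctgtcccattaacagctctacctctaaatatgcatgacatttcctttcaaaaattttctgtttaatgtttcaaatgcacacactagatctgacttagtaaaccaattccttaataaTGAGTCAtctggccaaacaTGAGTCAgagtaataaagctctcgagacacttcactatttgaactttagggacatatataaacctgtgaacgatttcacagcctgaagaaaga
LINC01915 intron: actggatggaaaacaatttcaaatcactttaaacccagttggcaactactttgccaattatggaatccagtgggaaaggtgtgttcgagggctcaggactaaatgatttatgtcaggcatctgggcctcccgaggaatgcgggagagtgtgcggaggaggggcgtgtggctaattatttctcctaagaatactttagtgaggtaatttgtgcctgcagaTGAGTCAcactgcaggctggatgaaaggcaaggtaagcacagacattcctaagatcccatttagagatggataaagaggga

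Most members were weakly acetylated. Their median total over the 4 H3K27ac libraries was 94 counts, against 123 for the other distal acetylated intervals and 653 for promoter intervals that passed the same minimum. Of the members, 2752 (54.6%) held 60 to 99 counts and 64 held 500 or more. The median member stood at 2.04 and 2.05 CPM in the vehicle libraries and at 4.30 and 4.35 CPM in the sorbitol libraries. The other distal acetylated intervals had medians of 4.24 and 4.09 CPM with vehicle and 4.42 and 4.35 CPM with sorbitol. The criteria fix a low vehicle level relative to sorbitol in the members. The median ratio was 2.09 in the members, and 74 had a ratio of 5 or more. Choice by ratio raises such a median. Distal intervals with 30 or more counts were also chosen from the libraries numbered 1 alone. Their median ratio was 2.22 there and 1.62 in the libraries numbered 2, where the median of all was 1.21. Chosen from the libraries numbered 2, they had 2.22 there and 1.61 in the others, against 1.20 for all.

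**Figure D1:**
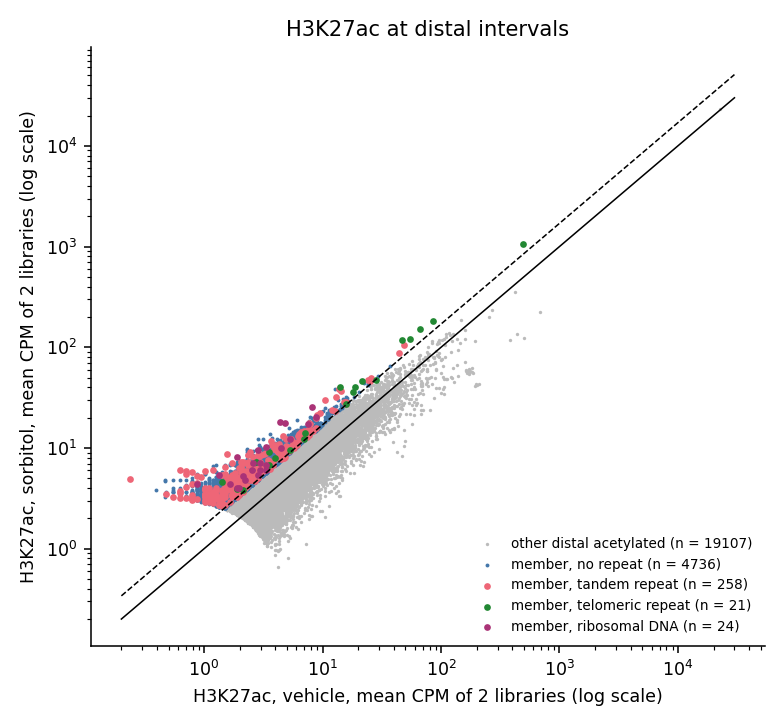
Mean H3K27ac CPM of the 2 vehicle libraries (x axis, log scale) against that of the 2 sorbitol libraries (y axis, log scale) for 24146 distal acetylated intervals, with the line of equality (solid) and the ratio of 1.7 (dashed). Members, coloured by sequence class, crowd the low end of the vehicle axis, while telomeric repeats in green reach the highest levels among members.

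The members' share fell with the vehicle level. In the lowest of 10 equal groups by vehicle H3K27ac CPM, 2032 of 2429 distal acetylated intervals (83.66%) were members, and in the highest 58 of 2414 (2.403%). The count minimum fixes part of this, since an interval low in vehicle passes 60 counts only when it is higher in sorbitol. The converse set was smaller: 1349 distal intervals lost H3K27ac by the mirrored rule, 5.59% of the distal acetylated against 20.9% for the members, and they made up 13.01% of the highest group. These numbers depend on scaling between libraries. With TMM scaling, used below for the other targets, members numbered 3653, and the losing set on that scale is not given here. Among promoter intervals 1365 of 21790 (6.26%) met the gaining rule.

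**Figure D2:**
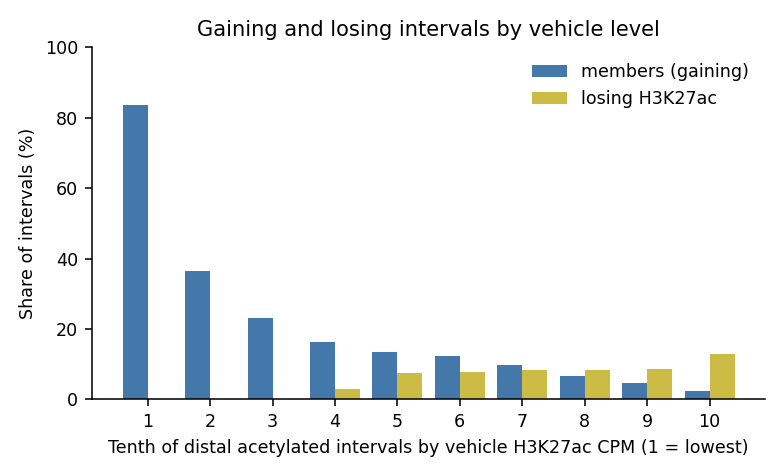
Share of distal acetylated intervals that gained H3K27ac (members, blue) or lost it by the mirrored rule (yellow), in percent, for 10 equal groups ordered by vehicle CPM from lowest to highest. Members make up 83.66% of the lowest group and 2.403% of the highest.

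The intervals nearest to the ratio threshold held 60 to 265 H3K27ac counts. Just inside were an MPPED2 intron (ratio 1.7001, with 16 and 23 counts in vehicle and 50 and 35 in sorbitol), a NOL4 intron (1.7001) and an intergenic interval near AGXT (1.7002). Just outside were an ESRRG intron (1.6999), an intergenic interval near CDON (1.6998) and an interval in an intron of SP1 (1.6993).

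The largest ratio belonged to the PRKAG2 intron shown above, in the gene for a regulatory subunit of the energy sensor AMPK. Its H3K27ac counts were 0 and 3 in the vehicle libraries and 37 and 42 in the sorbitol libraries, a ratio of 20.8. Next came an interval in an intron of a non-coding gene on the SLIT2 side, a gene for an axon guidance ligand, with 4 and 2 counts against 37 and 40 (ratio 10.2). Introns of UST, which encodes a sulfotransferase, and of MBNL1, a splicing regulator, followed with ratios of 9.88 and 9.68. A TAF4 intron reached 9.58. In each of these 5 the vehicle libraries held at most 5 counts, so the ratios rest on few reads.

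By counts the order was different: 5 of the 6 members with the most H3K27ac counts were telomeric repeats at chromosome ends. The one at chr5:9951-11626, on the end of the short arm of chromosome 5, went from 3362 and 2839 counts to 8261 and 8659, a ratio of 2.16. The others lay at the ends of chromosomes 12, X, 10 and 18, with ratios between 2.12 and 2.52. The sixth was the TMEM242 intron at chr6:157310409-157311413, with 343 and 274 counts against 889 and 823 (ratio 2.18).

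Members lay mostly inside genes. Introns held 3433 of them (68.1%), against 57.6% of the other distal acetylated intervals and 46.0% of the losing ones, and 22.8% were intergenic, against 32.2% and 45.4%. Their median distance from a protein-coding start was 17630 bp, against 16010 bp for the others. They were narrower, with a median of 386 bp against 459 bp, and their median GC content was 52.1% against 54.2%, with 57.6% in the losing set. The central 300 bases held a median of 4 CpG dinucleotides, against 6 in the others and 8 in the losing intervals.

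Motifs were searched on both strands of the central 300 bases of each interval, as exact matches to 1 consensus each. The AP-1 motif TGANTCA, bound by the stress-responsive JUN and FOS proteins, was in 11.4% of members, 11% of the other distal acetylated intervals and 8.15% of the losing ones. The TEAD motif GGAATG was in 16.2%, 14.9% and 11.3%, and the GATA motif AGATAA in 11.8%, 9.62% and 6.38%. The GC-box GGGCGG, bound by SP1, went the other way, with 12.5%, 19.5% and 22.9%. The FOX motif TGTTTAC was in 4.25% of members, 10.8% of the others and 27.1% of the losing set. The CTCF consensus was in 4.01% of members and 4.27% of the others. The NFAT5 motif, for the factor of the osmotic response, was in 2.90% and 2.43%. Over all 48827 distal intervals the same windows held AP-1 in 10.2%, TEAD in 16%, GATA in 12.1%, the GC-box in 13.6%, FOX in 7.67%, CTCF in 5.46% and NFAT5 in 2.87%. A match describes letters and not binding.

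Members were spread over all the chromosomes used, at 7.97% of the distal acetylated intervals of chromosome X, 9.52% of chromosome 19 and between 17.2% and 26.2% elsewhere, highest on chromosome 21. Without ribosomal DNA the share on chromosome 21 was 20.3% (59 of 290). On chromosome X the median H3K27ac ratio of distal acetylated intervals was 0.915 and on chromosome 19 it was 0.997, while the remaining medians lay between 1.12 and 1.29. Of the members, 1001 (19.9%) had another within 10 kb. Their nearest protein-coding genes numbered 2890.

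Several genes stood out by the number or share of members around them. ZNF608, a zinc finger gene, was nearest to 30 members among 39 distal acetylated intervals over 1358 kb of chromosome 5, and 38 of the 39 had a ratio above 1. Their H3K27ac counts summed to 1037 and 1043 with vehicle and 2973 and 2503 with sorbitol, which is 163 and 164 CPM against 346 and 330 CPM. Both sorbitol sums lay above both vehicle sums, at a ratio of 2.07, and at the 30 members the criteria fix this order. At the ZNF608 promoter the same libraries gave 25.9 and 26.1 CPM against 40.0 and 44.1 CPM. Summed YAP1 over the 39 intervals was 268 and 275 CPM against 134 and 136 CPM, and of the 10 members tested for YAP1 there 0 passed, where 5.34% of all tested intervals were called higher and 1.49% lower. On this scale the median log2 fold change of all tested YAP1 intervals was -0.70, and that of the ZNF608 sum was -1.01.

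SEMA3C, which encodes a secreted semaphorin, had 15 members among 16 intervals, 12 of them in a row on chromosome 7 between 80773600 and 81299607. The sums were 34.8 and 35.9 CPM with vehicle and 74.9 and 87.1 CPM with sorbitol, and its promoter had 10.5 and 12.0 CPM against 23.5 and 22 CPM. MED13L, a subunit of the Mediator kinase module, had 17 of 25, with 11 in a row, and sums of 81.1 and 79.4 CPM against 148 and 140 CPM. AUTS2, a neurodevelopmental gene, had 18 of 39, and PCDH9, a protocadherin, had 25 of 107, the median ratio of its 107 intervals being 1.40. The promoter ratio was 1.62 for ZNF608, 2.02 for SEMA3C, 1.26 for MED13L, 1.25 for AUTS2 and 0.947 for PCDH9. TPTE, which tied with ZNF608 for the most members with 30 of 95, was only the nearest annotated protein-coding gene to 24 members in ribosomal DNA on the short arm of chromosome 21, which are described below.

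**Figure D3:**
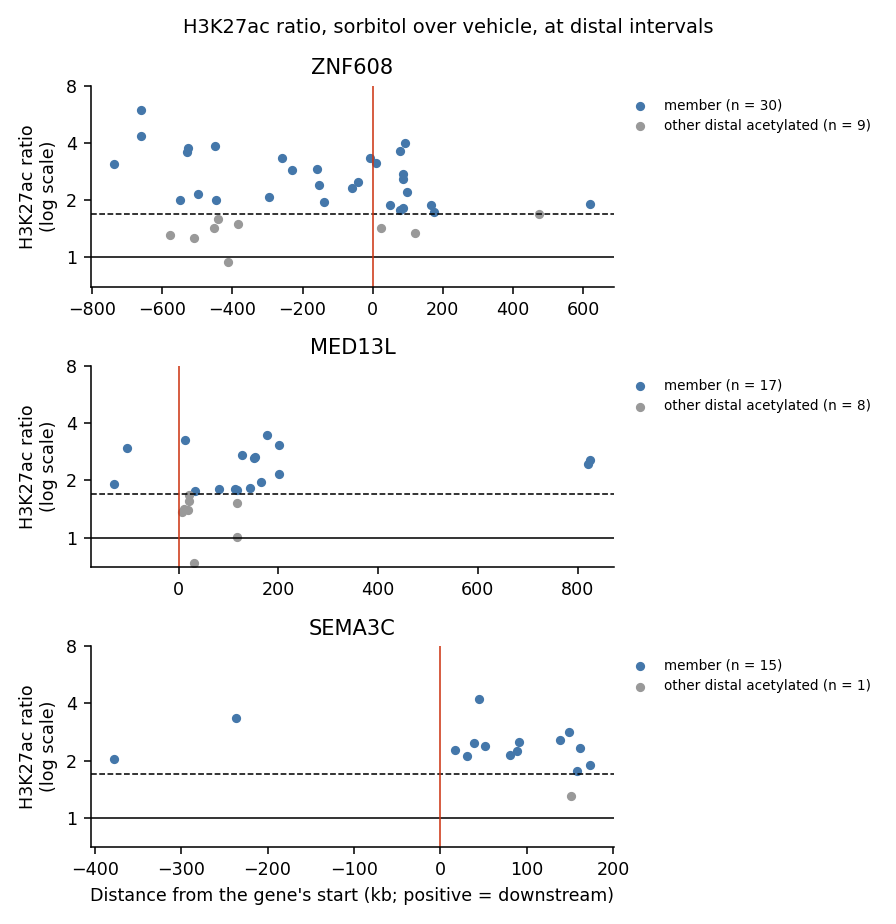
H3K27ac ratio of sorbitol to vehicle (mean CPM of 2 libraries each, log scale) at distal acetylated intervals assigned to ZNF608, MED13L and SEMA3C, by distance from the gene's start in kb (red line), with ratios of 1 (solid) and 1.7 (dashed). Members (blue) number 30 of 39, 17 of 25 and 15 of 16, and they lie on both sides of each start.

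Among genes with at least 10 distal acetylated intervals, high shares were also found at LMO4 (8 of 11), a LIM-only transcription regulator, SLC25A21 (8 of 11), COL13A1 (7 of 10), PTPN14 (7 of 10), MBNL1 (9 of 13), GALNT2 (11 of 16), MN1 (8 of 12), ZBTB16 (7 of 11) and NFIB (8 of 13). Promoters of the genes nearest to members differed little from others. The strongest promoter interval of 2368 of these genes had a median H3K27ac ratio of 1.09, and 4.94% reached 1.7. For the nearest genes of the other distal acetylated intervals the median was 1.02 and the share 3.35%, and over all protein-coding promoters 1.00 and 3.48%.

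Gene lists were read by their nearest distal intervals, to be set beside the 20.9% of all distal acetylated intervals that were members. Near 14 osmotic stress genes 10 of 30 intervals were members (33.3%). They included 5 near SLC6A6, the taurine transporter, and 1 each near NFAT5, SGK1, AQP1, SLC38A2 and TSC22D3. Near 22 YAP target genes 25 of 83 were members (30.1%), of which 7 lay near PTPN14, a phosphatase that binds YAP1, and 3 near AMOTL1. Near 25 genes for ion transport in cell volume control the number was 9 of 42 (21.4%), and near 26 actin cytoskeleton genes 9 of 61 (14.8%). Immediate early genes had 8 of 84 (9.52%), heat shock genes 2 of 17 (11.8%), and genes of the integrated stress response 1 of 32 (3.12%). The median H3K27ac ratio near the osmotic stress genes was 1.03, below the 1.21 of all distal acetylated intervals, and near the YAP targets it was 1.39.

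The member with the largest ratio near any listed gene was in a PTPN14 intron at chr1:214520516-214520906. Its H3K27ac counts went from 24 and 24 to 111 and 91, a ratio of 3.30. Its YAP1 counts were 17 and 25 with vehicle and 3 and 4 with sorbitol, and did not pass the test (log2 fold change -0.61, SE 0.73, edgeR adjusted p = 0.69). Near SLC6A6 an intergenic member at chr3:14371871-14372266 held 29 and 27 H3K27ac counts against 82 and 75 (ratio 2.21). A member in a MYOF intron with both an AP-1 and a TEAD motif had a ratio of 2.38. Its YAP1 counts were 17 and 28 against 4 and 17, in sorbitol libraries of lower depth. On the TMM scale YAP1 there was 3.93 ± 1.86 against 7.94 ± 8.03 CPM (SD, n = 2). The fitted change was upward and did not pass (log2 fold change 0.91, SE 0.66, edgeR adjusted p = 0.47). Of the 5 members near YAP targets that could be tested for YAP1, 0 passed. Over all tested intervals 5.34% were called higher and 1.49% lower, so 5 intervals are too few to differ from these shares.

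CTCF, RAD21 and YAP1 did not enter the choice of members and were tested with edgeR over all intervals that held enough counts, with TMM scaling and Benjamini-Hochberg adjustment over all tested intervals of the target. The members were sparse for all of these: 1520 could be tested for CTCF, 693 for RAD21 and 731 for YAP1, and 3259 for none. The tested members are those with enough counts and do not stand for all 5039. In simulated data with these libraries' spread, the CTCF test recovered 18% of 2-fold changes, the RAD21 test 1% and the YAP1 test 12.5%. Only 200 intervals were changed in each simulation, drawn from all tested intervals and not from the members. Fewer were changed than were called in the data, which makes the adjusted threshold stricter. These shares are therefore not the recovery of the tests reported here, but intervals that did not pass may still differ.

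CTCF was higher after sorbitol at 333 tested members (21.9%), where 19.5% of all 39261 tested intervals were called higher, and lower at 394 (25.9%), where 20.7% of all were called lower. RAD21 was higher at 54 of 693 (7.79%) and lower at 27 (3.90%), against 3.34% and 1.45% of all 17011 tested. YAP1 was higher at 107 of 731 (14.6%) and lower at 11 (1.5%), against 5.34% and 1.49% of all 22765 tested. Directions depend on scaling. TMM holds most tested intervals near no change, and scaling to the total over all intervals, which shifted the median log2 fold change of all tested intervals to -1.04, -0.60 and -1.46, gave 135 higher and 921 lower members for CTCF, 36 and 93 for RAD21, and 32 and 271 for YAP1. With the total over chromosomes 1 to 22 and X the splits were 209 and 635, 44 and 34, and 69 and 82. For CTCF the excess of falls turned round with GC-corrected offsets, at 369 higher and 295 lower, and the split was 242 and 244 without vehicle replicate 1 and 262 and 252 without vehicle replicate 2.

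Rises for the different targets overlapped, in members and in other intervals. Of the 107 members higher for YAP1, 96 (89.7%) were also higher for CTCF, which is 28.8% of the CTCF set. Over all tested intervals these shares were 78.8% of the YAP1 set and 12.5% of the CTCF set. Of the 54 higher for RAD21, 50 (92.6%) were higher for CTCF, or 15% of that set, against 88.2% and 6.55% over all tested intervals, and 34 members were higher for all of CTCF, RAD21 and YAP1. No member was called in opposite directions for any pair of these targets. For this count and for the 34, the shares over all tested intervals are not given here. Of the 27 members lower for RAD21, 19 (70.4%) were lower for CTCF, against 77.6% over all tested intervals. Of the 11 lower for YAP1, 1 was (9.09%), against 5.88%. The differences between these shares were not tested.

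Many members called higher lay in repeated sequence, although 192 of the 333 higher for CTCF did not. The classes that follow were defined after the values had been seen, so no test is given for them and each is set beside non-members of the same class. Telomeric repeats (at least 3 tandem pairs of TTAGGG) numbered 21 members of 27 distal acetylated intervals of this kind. Ribosomal DNA (within 10 kb of an annotated 5.8S rRNA gene) numbered 24 of 27. Tandem repeats, intervals outside those whose central bases (up to 300) matched themselves at 70% or more of positions when shifted by 2 to 100 bases, numbered 258 of 701, a share of 36.8%. They made up 5.12% of members, 2.32% of the other distal acetylated intervals and 2.67% of the losing ones. The tandem members had a median unit of 38 bases and a median GC content of 61.8%, with H3K27ac ratios from 1.7 to 20.8 (median 2.34).

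Of the tandem repeat members, 99 of 134 tested were higher for CTCF and 2 lower, 22 of 103 were higher for RAD21 and 0 lower, and 43 of 123 were higher for YAP1 and 0 lower. Of tandem repeats that were not members, 168 of 285 (58.9%) were higher for CTCF, 36 of 220 (16.4%) for RAD21 and 75 of 251 (29.9%) for YAP1. All 24 ribosomal DNA members were higher for CTCF, 20 for RAD21 and 21 for YAP1. Of the 3 distal acetylated ribosomal DNA intervals that were not members, 3 were higher for CTCF, 0 for RAD21 and 3 for YAP1. Of the 21 telomeric members 18 were higher for CTCF, 18 for YAP1 and 1 of 20 tested for RAD21. Of telomeric non-members, 4 of 5 tested were higher for CTCF, 2 of 5 for YAP1 and 0 of 4 for RAD21. The 303 members in these classes, 6.01% of all members, held 141 of the 333 CTCF rises, 43 of the 54 RAD21 rises and 82 of the 107 YAP1 rises.

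In the remaining 4736 members the balance was different. CTCF was higher at 192 of 1341 tested (14.3%) and lower at 392 (29.2%), RAD21 was higher at 11 of 546 (2.01%) and lower at 27 (4.95%), and YAP1 was higher at 25 of 563 (4.44%) and lower at 11 (1.95%). Non-members free of these repeats had 13.5% and 26.7% for CTCF, 1.42% and 3.12% for RAD21, and 3.90% and 1.64% for YAP1. The median log2 fold change of tested members without repeats was -0.35 for CTCF, -0.88 for RAD21 and -0.03 for YAP1, against -0.28, -0.63 and 0.00 in those non-members.

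**Figure D4:**
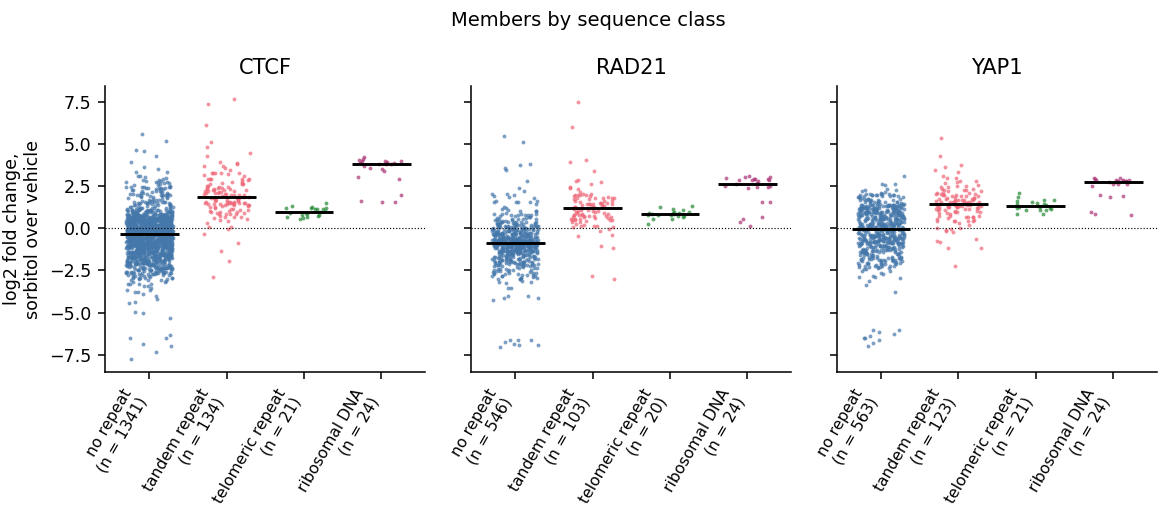
Fitted log2 fold changes of sorbitol over vehicle (edgeR, TMM scaling) for the tested members in 4 sequence classes, 1 panel each for CTCF, RAD21 and YAP1, with each member a point and the class median a bar. Members in tandem repeats, telomeric repeats and ribosomal DNA lie mostly above 0, while those without repeats spread to both sides of 0. For members at 0 counts in a whole group the plotted size depends on the fit's prior.

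Summed over each class, the counts showed the same split in every library. The 24 ribosomal DNA members took 1535 and 1565 CPM of the CTCF libraries with vehicle and 14970 and 14410 CPM with sorbitol. For RAD21 they took 1665 and 1855 against 8589 and 8838 CPM, and for YAP1 1579 and 1611 against 5770 and 6726 CPM. Their H3K27ac was 83.9 and 83.9 CPM with vehicle and 206.6 and 243.6 CPM with sorbitol. Vehicle and sorbitol libraries did not overlap for CTCF, RAD21 or YAP1, while for H3K27ac the criteria fixed this in advance. The scale, the total over chromosomes 1 to 22 and X, is not the TMM scale.

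The 21 telomeric members took 5572 and 7179 CPM of the CTCF libraries with vehicle and 10150 and 9292 CPM with sorbitol. YAP1 gave 4945 and 5062 against 7381 and 10010 CPM, and RAD21 8421 and 13900 against 17850 and 16060 CPM. The 258 tandem repeat members took 1553 and 1564 against 4843 and 4671 CPM for CTCF, 4325 and 4447 against 8386 and 8811 CPM for RAD21, and 3690 and 3816 against 7659 and 7540 CPM for YAP1. By contrast the 4736 members without repeats went on this scale from 40810 and 38710 to 28850 and 29700 CPM for CTCF, from 34620 and 29600 to 22200 and 22540 CPM for RAD21, and from 19960 and 19850 to 18410 and 16400 CPM for YAP1. On this scale the median log2 fold change of all tested intervals was -0.50 for CTCF, -0.24 for RAD21 and -0.70 for YAP1, so a lower sum is not particular to the members. The H3K27ac of these members went from 12010 and 11940 to 25580 and 25150 CPM. Reads from repeated sequence can align to any of several copies, and how such reads were kept is not given in the sources used here, so a value at 1 copy may stand for several.

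Inside a library, the counts in the members relative to the other distal acetylated intervals do not depend on scaling between libraries. The log2 of this ratio was -2.75 and -2.83 in the CTCF libraries with vehicle and -2.46 and -2.40 with sorbitol, a difference of 0.36 (SD 0.073, from 2 libraries a group). For RAD21 it was -2.64 and -2.80 against -2.44 and -2.37, a difference of 0.32 (SD 0.12), and for YAP1 -2.84 and -2.90 against -2.54 and -2.58, a difference of 0.32 (SD 0.047). Sorbitol libraries lay above vehicle libraries for each target. Without the repeats and the intervals that dominate a library, the difference was not kept for CTCF and RAD21. For YAP1 it was smaller, with -2.98 and -2.95 against -2.81 and -2.89. Without the 3 repeat classes and without intervals above 0.1% of any library, an alternative added after seeing the data, the differences were -0.04 for CTCF (SD 0.020), -0.02 for RAD21 (SD 0.056) and 0.11 for YAP1 (SD 0.057). For H3K27ac, which chose the members, the values were 1.14 with all members and 1.11 without those intervals.

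**Figure D5:**
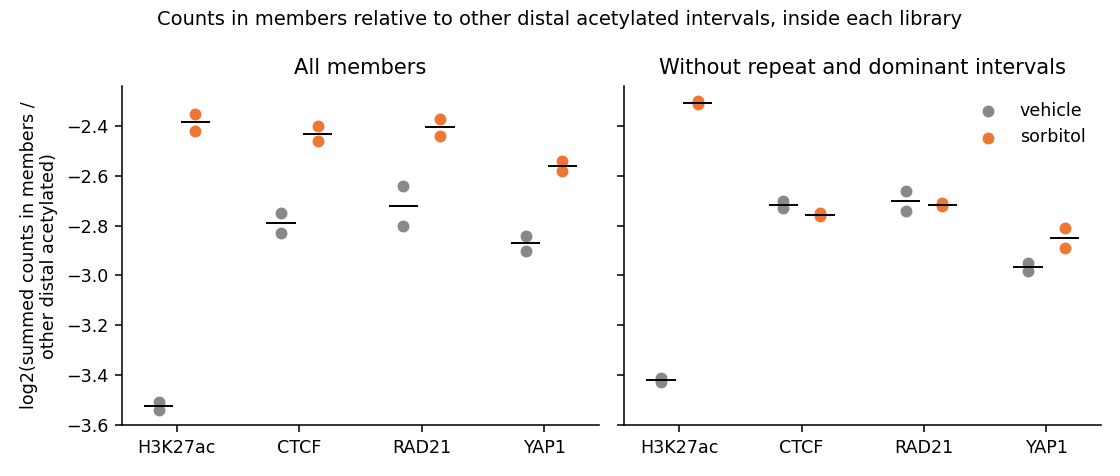
Log2 ratio of summed counts in the members to those in the other distal acetylated intervals, inside each library, for vehicle (grey) and sorbitol (orange) with 2 libraries (points) and their mean (bar) per group, over all members (left) and without repeat classes and intervals above 0.1% of a library (right). Differences for CTCF, RAD21 and YAP1 of 0.32 to 0.36 on the left become -0.04, -0.02 and 0.11 on the right, while H3K27ac stays above 1.

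Individual rises followed the same division. By size of the fitted change, 12 rises were taken, 4 for each target, and 9 of them were tandem repeats. For CTCF, an interval in introns of VSIR and CDH23 at chr10:71751383-71751582 went from 0 and 0 counts to 18 and 10, at least 12.1-fold higher against a floor of 3 counts in each vehicle library (edgeR adjusted p = 1.8e-05). A CASZ1 intron, in a gene for a zinc finger transcription factor, went from 1 and 0 to 62 and 23 (edgeR adjusted p = 1.1e-07), and a SCARB1 intron, in the gene for an HDL receptor, from 1 and 0 to 16 and 20 (edgeR adjusted p = 8.4e-06). The fourth, in coding sequence of CHADL on chromosome 22, was GC-rich (76.2%) but no tandem repeat. It went from 11 and 7 CTCF counts to 146 and 184, a log2 fold change of 5.59 (SE 0.26, edgeR adjusted p = 6.1e-14).

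For RAD21 the HUNK intron went from 0 and 0 counts to 20 and 10, at least 8.29-fold higher (edgeR adjusted p = 0.0067). A SEMA4D intron went from 11 and 0 to 87 and 150 (edgeR adjusted p = 0.00021), and coding sequence of AIRE from 0 and 1 to 14 and 10 (edgeR adjusted p = 0.021). An intergenic interval near ZNF517 went from 1 and 0 to 24 and 18 (edgeR adjusted p = 0.0011). The choice of these rises required both sorbitol libraries to lie above both vehicle libraries.

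For YAP1 all 4 were tandem repeats. The largest, in an intron of DIO3OS, the antisense neighbour of the deiodinase gene DIO3, went from 0 and 2 counts to 9 and 16 (edgeR adjusted p = 0.0011). Others were in introns of SGTA (3 and 0 against 9 and 8 counts) and ZC3H3 (2 and 5 against 17 and 9), and in an untranslated region of ITGB1BP1 (2 and 17 against 28 and 33, edgeR adjusted p = 0.00037).

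A pair of the sequences shown above had more counts. The TMEM242 intron rose for CTCF from 229 and 141 to 243 and 227 counts, which is 33.1 ± 1.49 against 114 ± 9.83 CPM on the TMM scale (SD, n = 2, log2 fold change 1.78, edgeR adjusted p = 2e-09). It rose for YAP1 by 2.09 (edgeR adjusted p = 2.4e-07) and for RAD21 by 1.24 (edgeR adjusted p = 0.019). The interval on the PROS1 side, of 25.1% GC, rose by 2.53 for CTCF (edgeR adjusted p = 1.4e-12), by 1.5 for RAD21 (adjusted p = 0.011) and by 1.99 for YAP1 (adjusted p = 9.4e-06), with an H3K27ac ratio of 1.95. The PRKAG2 intron, which had the largest H3K27ac ratio, did not pass for any: its CTCF counts were 30 and 16 against 7 and 16, with a log2 fold change of 0.43 (edgeR adjusted p = 0.53). Its RAD21 counts, 18 and 0 against 29 and 0, differed more between replicates than between treatments.

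The 12 falls chosen by the same rule were all free of these repeats. For CTCF, an interval in an intron of HYCC2 at chr2:201069314-201069704, nearest to NDUFB3, went from 57 and 25 counts to 0 and 0, at least 4.88-fold lower (edgeR adjusted p = 0.00013). An interval in LINC01829, near ETAA1, went from 31 and 27 to 0 and 0, at least 3.70-fold lower (edgeR adjusted p = 0.00057), and intergenic intervals on the PCDH9 and FOXB2 sides were at least 2.90-fold and 2.58-fold lower. H3K27ac, by which they were chosen, was higher at the same places, in the HYCC2 intron with 24 and 23 counts against 70 and 56.

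For RAD21, an MLLT3 intron, in a gene of the super elongation complex, went from 24 and 17 to 0 and 0 counts, at least 3.74-fold lower (edgeR adjusted p = 0.028). Its CTCF fell as well, from 35 and 31 to 2 and 4 (log2 fold change -2.04, edgeR adjusted p = 0.015). A DNTTIP1 intron and intergenic intervals near DDX1 and ALOX15 were at least 3.48-fold, 3.25-fold and 3.19-fold lower for RAD21. Of these the ALOX15-side interval also fell for CTCF, from 135 and 93 to 15 and 18 counts (edgeR adjusted p = 0.0013), while CTCF at the DNTTIP1 and DDX1 intervals did not pass (adjusted p = 0.17 and 0.25). The RAD21 falls depended on the test and the libraries: DESeq2 called 1 member lower and 49 higher, the fit with the replicate number as a block 3 and 50, and the fits without vehicle replicate 1 or 2 called 6 lower each. Without sorbitol replicate 1 or 2 the members lower for RAD21 numbered 51 and 52.

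YAP1 was lower at 11 members, and 5 of these (45.5%) held the AP-1 motif, which was in 11.4% of all members and in 14% of the other distal acetylated intervals lower for YAP1. The TEAD motif was in 5 of the 11, and in 41 of the 93 other distal acetylated intervals lower for YAP1, so it was not particular to the members. The ARSJ intron, whose sequence holds 2 AP-1 motifs, went from 30 and 21 YAP1 counts to 0 and 0, at least 2.09-fold lower (edgeR adjusted p = 0.02), while its H3K27ac went from 15 and 39 to 64 and 55 counts. The LINC01915 intron went from 24 and 20 to 0 and 0, at least 1.82-fold lower (edgeR adjusted p = 0.034), and a TSHZ2 intron from 19 and 20 to 0 and 0, at least 1.63-fold lower (edgeR adjusted p = 0.048). A PTK2 intron, in the gene for focal adhesion kinase, went from 43 and 17 to 1 and 0 (edgeR adjusted p = 0.043). Without vehicle replicate 1, and likewise without vehicle replicate 2, the number of members lower for YAP1 was 2. It was 17 without sorbitol replicate 1 and 35 without sorbitol replicate 2.

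Intervals with larger H3K27ac ratios were set beside those with smaller ones for the other targets. These groups were cut by ratio alone, so those at 1.7 or more also hold intervals that are not members. Among distal acetylated intervals free of the 3 repeat classes and of intervals above 0.1% of a library, those with 60 to 99 H3K27ac counts and a ratio over 2.5 (n = 801) changed in summed CTCF CPM by -0.39 on the log2 scale, those with a ratio of 1.7 to 2.5 (n = 1992) by -0.57, and non-members with a ratio of 1 to 1.7 (n = 3838) by -0.66. The same groups gave -0.38, -0.63 and -0.83 for RAD21 and -0.05, -0.07 and -0.17 for YAP1. Below a ratio of 1 this order was kept for YAP1 but not for CTCF or RAD21. Ratios of 0.59 to 1 and of 0.59 or less gave -0.67 and -0.66 for CTCF. For RAD21 they gave -0.78 and -0.72, and for YAP1 -0.26 and -0.61. With at least 100 and under 200 counts the CTCF values were -0.35, -0.46 and -0.48. There the order was not kept for RAD21, with -0.32, -0.65 and -0.64, or for YAP1, with -0.13, -0.27 and -0.18. Ratios of 0.59 to 1 and of 0.59 or less gave -0.55 and -0.41 for CTCF at these counts. For RAD21 they gave -0.72 and -0.47, and for YAP1 -0.468 and -0.535. With 200 or more counts the targets differed. The 31 intervals over 2.5 had 0.36 for CTCF, -0.37 for RAD21 and -0.82 for YAP1, against -0.31, -0.38 and -0.24 at ratios of 1 to 1.7. Those with a ratio of 1.7 to 2.5 (n = 431) had -0.32, -0.34 and -0.31. Those with a ratio of 0.59 to 1 had -0.18, -0.26 and -0.37, and those at 0.59 or less 0.03, -0.06 and -0.52. These are sums over intervals, with no test.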

How the data were processed

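CUT&Tag was read from 1 deposited table of counts per interval in 16 libraries. Per the submitters' processing notes the authors used hg38, BWA 0.7.17, MACS2 2.2.6 and bedtools 2.31.1. The role of each tool in calling intervals and making the counts is not given in the sources used here. Members and gene lists were chosen with earlier results of these data known. Intervals were annotated with GENCODE release 44.

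CTCF, RAD21 and YAP1 were each fitted alone on the 4 libraries of the target with edgeR 4.0.16 in R 4.3.3 (quasi-likelihood, two-sided, TMM, filterByExpr with a minimum count of 10), and calls had a Benjamini-Hochberg adjusted p under 0.05 over all tested intervals. Calling was tested on simulated data. Sums and sequences were computed with Python 3.11.15 and pandas 2.3.3. Folds against a group at 0 used a floor of 3 counts per library, which covers counting error only. Intervals named were the 6 largest by H3K27ac ratio and by counts, up to 4 called rises and 4 falls per target with replicates on separate sides, 3 on each side of the ratio threshold, the 12 largest ratios near listed genes, the 2 highest vehicle levels per kb for each target, and the 6 genes with the most members. Not all of these are described, and 1 interval and 1 sequence are not reported here. Genes by share of members and the repeat classes were added after the values were seen. Alternatives were DESeq2 1.42.0, other scalings, filters, GC offsets, a replicate block, each library left out and other member rules.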

Additional observations from a re-analysis of the deposited data

How the results depend on the processing

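Of 303 values of 24 named interval results under alternatives, 249 kept direction and side of the threshold, 54 kept direction but no longer passed, and 0 reversed. Named rises and falls were chosen as the largest called changes with replicates on separate sides, so a reversal was unlikely in advance. These values do not cover the other calls. The number of members was 2960 with a ratio of 2 or more, 9302 with 30 or more counts and 1626 with 120 or more counts. It was 3653 with TMM scaling and 4140 to 6892 with 1 H3K27ac library left out. Members called for CTCF numbered 727, or 334 with a mean of at least 50 counts, and 486 to 699 with 1 library left out. Members called for RAD21 numbered 81, against 50 with DESeq2, 129 with totals over all intervals, 122 with no count filter, 33 where the mean count was 50 or more, 193 in one fit on all 16 libraries and 38 without the 3 repeat classes. With 1 library left out they numbered 76 to 128, with 128 without sorbitol replicate 1 and 126 without sorbitol replicate 2. Members called for YAP1 numbered 118, against 303 with totals over all intervals, 57 with a mean of at least 50 counts and 36 without the repeat classes. With 1 library left out they numbered 72 to 169, the 72 without vehicle replicate 1. The causes were not tested, beyond the fewer intervals tested under a stricter filter or without repeats.

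With the replicate number as a block, RAD21 calls were 53 (50 higher, 3 lower), CTCF calls 304 higher and 363 lower, and YAP1 calls 109 and 9. Same-numbered libraries did not deviate together over all tested intervals (correlations -0.0086, -0.0049 and 0.0054 for CTCF, RAD21 and YAP1). Many of these intervals held few counts, where counting error can hide a shared deviation. The correlations therefore cannot tell whether same-numbered libraries shared a culture or batch. GC offsets gave 369 higher and 295 lower for CTCF, and 70 and 7 for RAD21.

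The within-library differences were, with all distal intervals as reference, 0.53 for CTCF and 0.44 for RAD21. As a median change in log2(CPM + 1) they were 0.25 for CTCF and 0.26 for YAP1. Without intervals above 0.1% of a library YAP1 had 0.43 (0.425). Without telomeric repeats and ribosomal DNA they were -0.16, -0.12 (-0.115) and -0.0063 for CTCF, RAD21 and YAP1, and without all repeat classes and intervals above 0.1% they were -0.041, -0.019 and 0.114.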
